A study of Mus musculus with 63 samples.

Results

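The reactive astrocyte genes described here are 10 genes that were chosen by name: Gfap, Vim, Serpina3n, Lcn2, A2m, Timp1, S1pr3, Cd44, Aspg and Steap4. They are 10 of the 55291 gene symbols counted in 63 RNA libraries from mouse organotypic entorhino-hippocampal tissue cultures, which are slices of entorhinal cortex and hippocampus kept alive on a membrane. All 10 passed the filter on low counts in all 20 comparisons fitted. The entorhinal cortex lesion (ECL) cuts the perforant path and removes the entorhinal input of the dentate gyrus (DG) and of the distal dendrites of CA3.

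Regional libraries were made from a DG or a CA3 that was cut out with a scalpel, each from 1 culture. Synpo+/+ cultures (C57BL/6J) gave 4 non-lesioned control and 7 lesioned (3 dp ECL, 3 days after the lesion) DG libraries and 2 control and 3 lesioned CA3 libraries. Cultures labelled Synpo-/- (B6.129-Synpotm1Mndl/Dllr, constitutively deficient for the actin-binding protein synaptopodin) gave 7 control and 4 lesioned DG libraries and 6 control and 6 lesioned CA3 libraries. Whole-culture input RNA came from pools of 6 Synpo+/+ cultures, 5 control and 5 lesioned (3 dp ECL), and each input has a synaptopodin co-immunoprecipitation (SP-coIP) partner. A further 2 input and 2 SP-coIP libraries labelled Synpo-/- carry no lesion state in the labels and entered no lesion comparison. All cultures came from pups aged P3 to P5 and were kept at least 18 days in vitro. The labels do not tie libraries to animals, so p-values measure the spread between these libraries, which may in part be technical.

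Astrocytes respond to injury and to the loss of synaptic input by becoming reactive. They enlarge, assemble more intermediate filaments and switch on secreted inhibitors of proteases, acute-phase proteins and receptors for lipids and matrix. Cytokines that act through gp130 and STAT3, and interleukin-1 and tumour necrosis factor that act through NF-kB, are the best known inducers. In the denervated molecular layer of the dentate gyrus, GFAP has long served as the marker of this response.

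The regional libraries held 14055930 to 46043990 counts. The depth of the input and SP-coIP libraries lay between 11601154 and 53682143. The DG library 5 of the lesioned Synpo+/+ group had a Prox1 level of 15.7 normalised counts per 1e6 counts (CPM), whereas its 6 group partners had at least 172, and the CA3 libraries had 12.6 to 44.6. Prox1 is the defining transcription factor of granule cells, so this library goes against its region label. Some of the results that use it are also given without it, and the others are given only with it. Of the CA3 libraries, control 1 labelled Synpo-/- had the highest Prox1 level, 44.6 CPM. Synpo itself did not fall in the regional libraries labelled Synpo-/-, which held 29.7 to 68.1 CPM against 19.0 to 39.6 CPM in the Synpo+/+ libraries. Whether the counted exons lie in the deleted part of the gene was not tested, and genotype is therefore used below only as the label gives it. The 16 homeostatic astrocyte markers (among them Aqp4, Slc1a2, Slc1a3 and Gja1) summed to 4244 to 7362 CPM in the regional libraries, and none was at 0 in all libraries of any group.

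The DNA just before the RefSeq start of 3 members is shown because they differ in letters that match the motifs of STAT and NF-kB factors. The sequences are from RefSeq (GRCm38.p6) and end at its annotated start of the gene, for Steap4 15 bases before it, where an exon of the gene begins in the annotation. They are written 5′ to 3′ on the strand of the gene, with matches to the STAT motif TTCNNNGAA or the NF-kB motif (GGGA and CC with 4 bases between them), each on either strand, in capitals.
Gfap: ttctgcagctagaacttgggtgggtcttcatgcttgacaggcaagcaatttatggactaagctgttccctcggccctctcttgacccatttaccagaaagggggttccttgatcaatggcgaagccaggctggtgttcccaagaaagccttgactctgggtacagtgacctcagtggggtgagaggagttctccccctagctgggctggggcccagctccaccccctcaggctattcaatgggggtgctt
Serpina3n: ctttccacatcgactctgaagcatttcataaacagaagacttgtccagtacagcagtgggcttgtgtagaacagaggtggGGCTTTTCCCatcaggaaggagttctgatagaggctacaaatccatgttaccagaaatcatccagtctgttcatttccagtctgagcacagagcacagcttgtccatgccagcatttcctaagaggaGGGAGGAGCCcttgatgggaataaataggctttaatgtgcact
Steap4: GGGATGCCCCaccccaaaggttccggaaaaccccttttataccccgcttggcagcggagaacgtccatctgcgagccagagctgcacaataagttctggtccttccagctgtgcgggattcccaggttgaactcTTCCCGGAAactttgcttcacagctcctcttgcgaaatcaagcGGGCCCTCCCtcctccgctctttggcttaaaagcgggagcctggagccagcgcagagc
The Gfap sequence is chr11:102897201-102897450 on the minus strand, the Serpina3n sequence is chr12:104406458-104406707 on the plus strand and the Steap4 sequence is chr5:7960222-7960456 on the plus strand, which also holds an exon of the noncoding gene Gm30835. The Gfap sequence lies inside the gene span given below, which begins further upstream in the annotation used for counting, and outside its annotated exons. The windows of Vim and Lcn2 lay in exons of these genes with 250 and 197 of their bases. Of the 10 members, 9 were in the promoter table. A2m was not. In the 250 bases before the start, only Steap4 of these 9 had a match to the STAT motif, at 116 to 108 bases before the start, whereas 7.02% of all 32851 promoters had one. The NF-kB motif was matched in Vim, Serpina3n and Steap4, beside 17.6% of all promoters, and the AP-1 motif TGANTCA in none of the 9, beside 6.75%. A match is a description of these letters and shows no binding, and the absence of a match holds for this window alone.

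Compared per length (TPM, counts per exon length scaled to the same total in each library), the same 3 members led in all groups: Gfap ranked highest, then Serpina3n, then Vim. In control DG of Synpo+/+ cultures Gfap had 573 ± 78.8 TPM (SD, n = 4), Serpina3n 245 ± 48.9 and Vim 182 ± 19.8 TPM, and the ranges of Serpina3n and Vim over the 4 libraries overlapped. Lcn2 (51.8 ± 16 TPM), A2m (36.4 ± 2.40 TPM), Timp1 (29.5 ± 10.1 TPM) and Cd44 (22.9 ± 2.82 TPM) followed, and each overlapped with its neighbour in this order. S1pr3 (11.9 ± 0.85 TPM), Aspg (7.24 ± 0.260 TPM) and Steap4 (1.16 ± 0.777 TPM) were the lowest, and their ranges did not overlap with each other or with that of Cd44. In whole-culture control input Gfap had 10653 ± 2257 TPM (n = 5), whereas Vim had 142 ± 14.4 TPM. The whole cultures and the regional libraries were prepared and normalised separately, so their levels were not tested against each other.

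**Figure D1:**
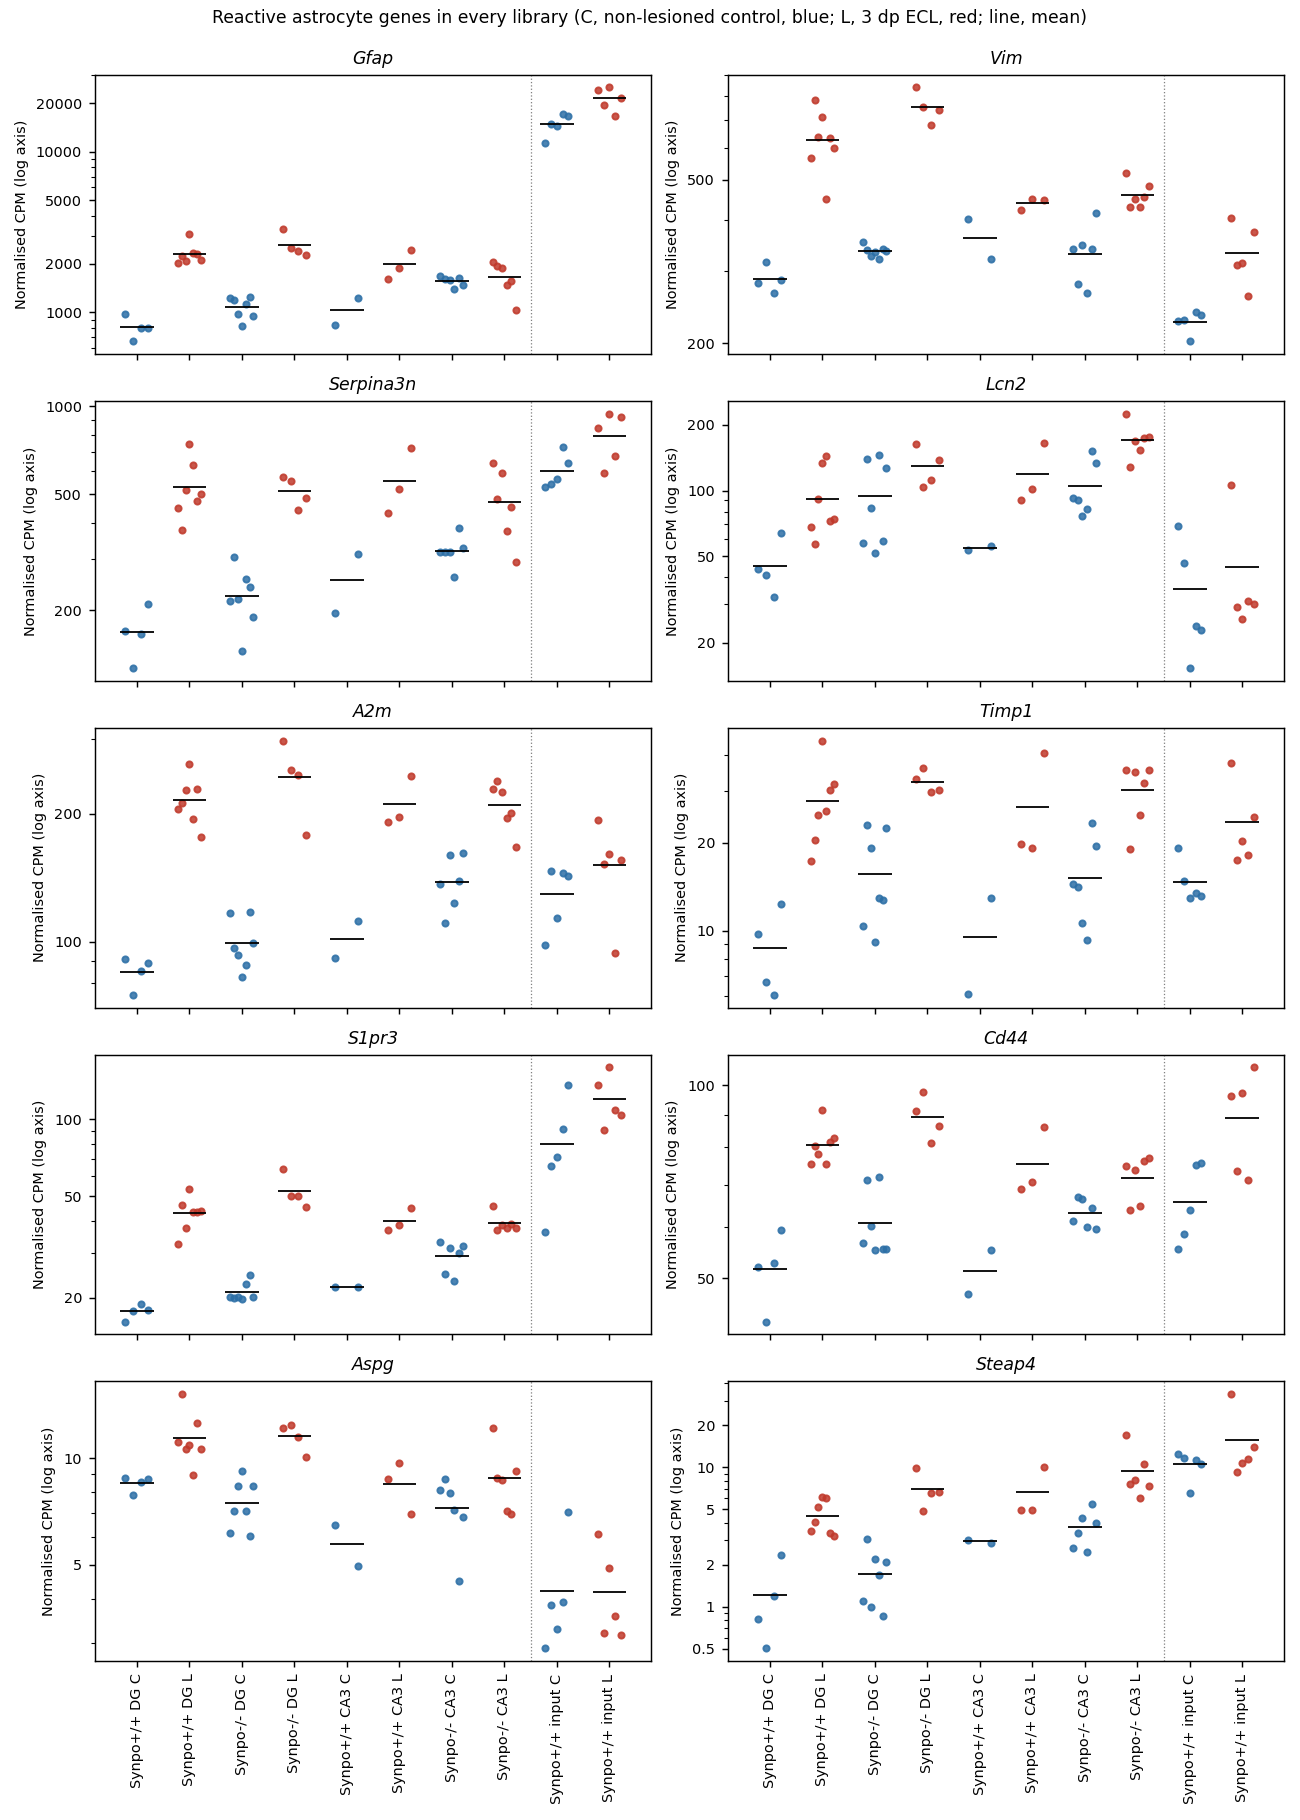
Normalised CPM (log axis) of each of the 10 genes in every regional and input library, with controls in blue, 3 dp ECL in red and the group mean as a line; Synpo-/- is as labelled. In both DG pairs the red points of Gfap, Vim, Serpina3n, A2m, Timp1, S1pr3, Cd44, Aspg and Steap4 lie above all blue points, whereas those of Lcn2 overlap with the controls.

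The first question was how the members changed in the DG, the region that loses its main input. In Synpo+/+ DG 9 of 10 members rose at 3 dp ECL (edgeR quasi-likelihood test, adjusted p below 0.05 over all genes), where 7.86% of the 23720 genes tested were called higher. In DG labelled Synpo-/- 9 of 10 also rose, where 5.17% of 23310 genes were called higher. The median log2 fold change of the members was 1.23 and 1.19, while the median over all genes tested was close to 0 in both. Members without overlap between lesioned and control libraries numbered 9 in each, beside 8.81% and 3.92% of all genes. In bulk tissue a larger number of astrocytes and more RNA per astrocyte cannot be told apart.

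Both intermediate filament genes rose in DG. Gfap (chr11:102887336-102900912), which encodes the filament protein of astrocytes, had 972, 659, 794 and 801 CPM in the control Synpo+/+ DG libraries and 2038 to 3056 CPM (median 2231, n = 7) in the lesioned ones. The groups did not overlap. The log2 fold change was 1.44 (SE 0.14, adjusted p = 2.9e-05). In DG labelled Synpo-/- Gfap lay between 828 and 1243 CPM (median 1119.8, n = 7) in controls and at 3302, 2529.7, 2399 and 2280.2 CPM in lesioned cultures, a log2 fold change of 1.30 (SE 0.12, adjusted p = 8.7e-06). Vim (chr2:13573927-13582826), the filament protein that astrocytes share with many immature and mesenchymal cells, had 281, 316, 266 and 285 CPM in control Synpo+/+ DG and 448 to 782 CPM (median 633) after the lesion, and the lowest of these was the library with the low Prox1 level. Its log2 fold change was 1.05 (SE 0.15, adjusted p = 0.00065) and 1.10 without that library. Without it 9 members were called as well, with a log2 fold change of 1.42 for Gfap. In DG of cultures labelled Synpo-/- the 7 controls spanned only 321 to 353 CPM, the lesioned libraries held 842, 754, 682 and 741 CPM, and the log2 fold change was 1.18 (SE 0.09, adjusted p = 5.7e-07).

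Of the secreted proteins, Serpina3n, A2m and Timp1 rose in DG of both genotypes, and Lcn2 rose in Synpo+/+ DG, where its groups overlapped. Serpina3n (chr12:104406729-104414329), an inhibitor of serine proteases, had 170.1, 127, 166 and 211 CPM in control Synpo+/+ DG and 376 to 746 CPM (median 500.1) after the lesion. Its log2 fold change was 1.56 (SE 0.17, adjusted p = 9.7e-05) there and 1.21 (SE 0.14, adjusted p = 6.5e-05) in DG labelled Synpo-/-, where 4 lesioned libraries at 440.5 to 573 CPM stood above 7 controls at 146 to 305 CPM. Serpina3n has near-identical neighbours on its chromosome, between which reads could be split. The most abundant of them, Serpina3i, averaged at most 3.26 CPM in any regional group. A2m (chr6:121635376-121679227), which encodes the broad protease trap alpha-2-macroglobulin, had 91.0, 75.1, 85.3 and 89.2 CPM in control and 176 to 261 CPM (median 211) in lesioned Synpo+/+ DG. Its log2 fold changes were 1.25 (SE 0.11, adjusted p = 2.5e-05) and, in DG labelled Synpo-/-, 1.31 (SE 0.13, adjusted p = 1.1e-05). Timp1 (chrX:20870166-20874735), an inhibitor of matrix metalloproteinases, had 9.77, 6.68, 6.04 and 12.4 CPM in control and 17.3 to 44.7 CPM (median 25.7) in lesioned Synpo+/+ DG. Its log2 fold change was 1.59 (SE 0.25, adjusted p = 0.0012) and, in DG labelled Synpo-/-, 1.05 (SE 0.21, adjusted p = 0.0047), where controls reached 23 CPM and the lesioned libraries held 33.0, 35.9, 29.8 and 30.3 CPM.

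Timp1 is X-linked, and the groups differed in how many libraries had more Xist than Y-linked RNA. Xist is made from the inactive X chromosome of females. All 4 control Synpo+/+ DG libraries had more Xist than Y-linked RNA, whereas 4 of the 7 lesioned ones did. Within the libraries with more Xist, Timp1 lay at 6.04 to 12.4 CPM in controls and at 25.7 to 44.7 CPM after the lesion, without overlap. In DG labelled Synpo-/- these libraries held 9.12 to 23 CPM in controls and 29.8 to 30.3 CPM after the lesion. In Synpo+/+ CA3 the 2 controls had more Xist, whereas 1 of the 3 lesioned libraries did. With the Synpo-/- label 4 of 7 controls and 2 of 4 lesioned libraries did in DG. In Synpo+/+ DG 4 of 5 sex-linked genes were called higher after the lesion. The Synpo+/+ lesion comparisons of DG and CA3 thus differ in sex as well as in lesion, for every member. The part of sex in the other members was not tested. Timp1 also lies inside Syn1 on the other strand, and counting did not use strand. Syn1 averaged 80.1 CPM in control and 93.6 CPM in lesioned Synpo+/+ DG, and its part in the Timp1 values was not tested.

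Lcn2 (chr2:32384633-32388252), which encodes lipocalin 2, a carrier of iron-binding siderophores and an acute-phase protein, had 43.4, 40.8, 32.4 and 63.8 CPM in control Synpo+/+ DG and 56.6 to 143 CPM (median 74.2) in lesioned DG, with a log2 fold change of 0.93 (SE 0.24, adjusted p = 0.025). The call was lost without lesioned library 4 or without control 1, 2 or 3, with adjusted p-values up to 0.085. Among the DG libraries labelled Synpo-/- the controls already ranged from 51.8 to 145 CPM (median 82.9) and the lesioned libraries held 163, 104, 112 and 138 CPM, so that the log2 fold change of 0.46 (SE 0.26) did not pass the test (adjusted p = 0.33).

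The receptors rose in DG by unequal amounts. S1pr3 (chr13:51408639-51422797), a receptor for the lipid sphingosine-1-phosphate, had 16.1, 17.7, 18.9 and 17.9 CPM in control Synpo+/+ DG and 32.5 to 53.3 CPM (median 43.5) after the lesion, with a log2 fold change of 1.2 (SE 0.13, adjusted p = 6.4e-05). In DG of cultures labelled Synpo-/- it rose from 19.8 to 24.5 CPM in the 7 controls to 64.1, 49.9, 50.3 and 45.4 CPM, with a log2 fold change of 1.33 (SE 0.11, adjusted p = 1.6e-06). Cd44 (chr2:102811141-102901665), the receptor for the matrix sugar hyaluronan, changed less. It had 52.0, 42.8, 52.8 and 59.4 CPM in control and 75.4 to 91.5 CPM (median 80.3) in lesioned Synpo+/+ DG, and its log2 fold change was 0.56 in both genotypes (SE 0.10 in both, adjusted p = 0.0038 in Synpo+/+ and 0.0021 in cultures labelled Synpo-/-). The groups of both receptors did not overlap in DG of either genotype.

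The metabolic enzymes were the lowest members and differed most. Steap4 (chr5:7960457-7982213), a metalloreductase that reduces iron and copper, had 0.823, 0.505, 1.19 and 2.35 CPM in control Synpo+/+ DG, the lowest of which was 9 counts in a library. It had 3.22 to 6.11 CPM (median 4.08) after the lesion, with a log2 fold change of 1.79 (SE 0.34, adjusted p = 0.0045). In DG labelled Synpo-/- it went from 0.866 to 3.05 CPM (median 1.68) to 9.85, 4.90, 6.55 and 6.64 CPM, with a log2 fold change of 2.02 (SE 0.29, adjusted p = 0.0004). These are the largest fold changes of the 10 members in DG, with the widest errors. Aspg (chr12:112106679-112127559), an asparaginase, had 8.77, 7.86, 8.56 and 8.75 CPM in control and 8.98 to 15.2 CPM (median 10.9) in lesioned Synpo+/+ DG. The log2 fold change of 0.35 (SE 0.15) did not pass the test (adjusted p = 0.12), although no lesioned library fell below a control. Among the DG libraries labelled Synpo-/- Aspg rose from 6.03 to 9.17 CPM to 12.2, 12.4, 11.5 and 10.1 CPM, with a log2 fold change of 0.63 (SE 0.14, adjusted p = 0.011).

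**Figure D2:**
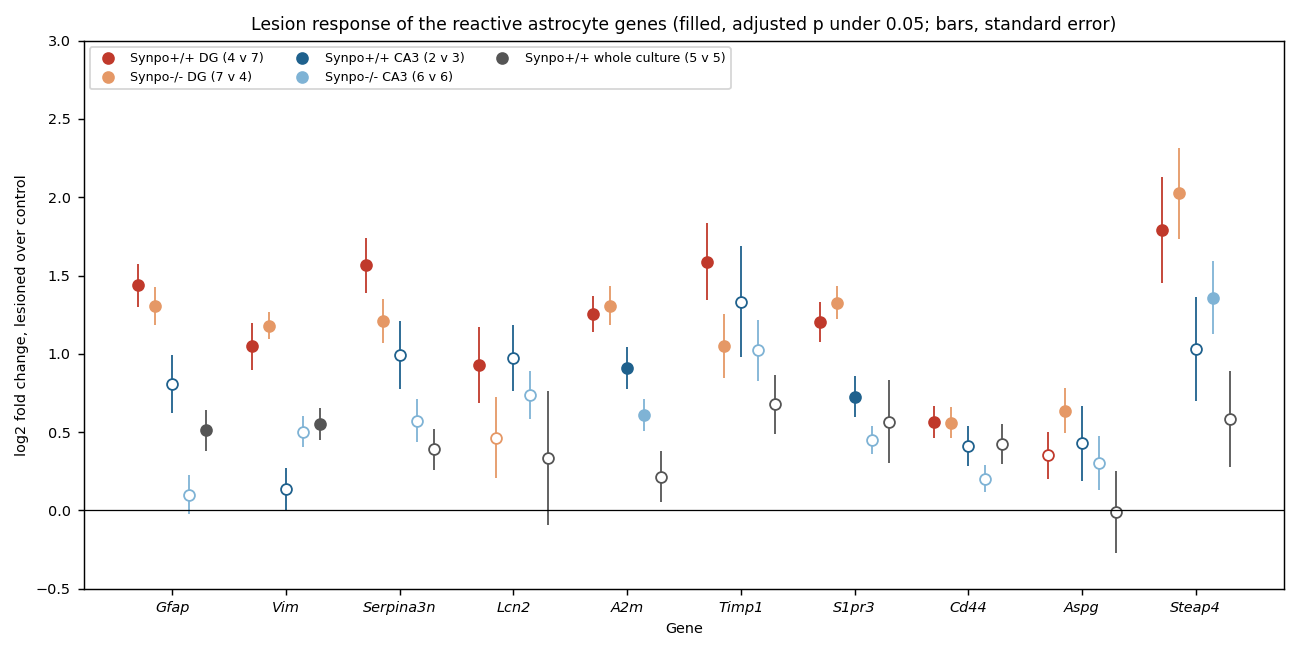
Log2 fold change (lesioned over control, with standard error) of each gene in the 5 lesion comparisons, with the number of control and lesioned libraries in the key and filled points for an adjusted p below 0.05. Filled points number 9 in each DG comparison and 2 in each of the other 3. The DG values of all members but Lcn2 and Aspg lie above their CA3 values in both genotypes.

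CA3 receives entorhinal input on distal dendrites and mossy fibers from the granule cells. In Synpo+/+ CA3 2 of 10 members rose, A2m and S1pr3, where 1.5% of the 22340 genes tested were called higher. DESeq2 called 5 members there, beside 1343 of the 22340 genes. A2m had 91.4 and 112 CPM in the 2 controls and 191, 196 and 245 CPM in the lesioned libraries (log2 fold change 0.91, SE 0.14, adjusted p = 0.027). S1pr3 had 21.9 CPM in both controls and 36.9, 38.5 and 44.8 CPM after the lesion (log2 fold change 0.73, SE 0.13, adjusted p = 0.035). With only 2 controls, all 10 members had every lesioned library above both controls, but so did 32.1% of all genes. The A2m call was lost without lesioned library 1 or 2 or control 1, and the S1pr3 call without any single one of the 5 libraries, with adjusted p-values up to 0.092 and 0.13. Leaving out either control leaves 1 control without a spread of its own, and such a fit assumes that it varies like the rest. The share of all genes called without each library is not given. Gfap had 829.8 and 1235 CPM in controls and 1622, 1892 and 2454 CPM after the lesion, with a log2 fold change of 0.81 (SE 0.18, adjusted p = 0.058). Serpina3n (0.99, SE 0.22, adjusted p = 0.051) and Lcn2 (0.97, SE 0.21, adjusted p = 0.052) lay as close to the threshold, and Timp1 had 1.33 (SE 0.36, adjusted p = 0.077). Vim, at 401 and 322 CPM in controls and 423, 449.8 and 446 CPM after the lesion, had the smallest log2 fold change (0.14, SE 0.13, adjusted p = 0.56).

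In CA3 labelled Synpo-/-, with 6 libraries in each group, 2 of 10 members rose, A2m and Steap4, where 0.053% of 20772 genes were called higher. DESeq2 called 7 members there, beside 81 of the 20772 genes. A2m went from 111 to 162 CPM (median 138) to 167 to 239 CPM (median 213), a log2 fold change of 0.61 (SE 0.10, adjusted p = 0.025). Steap4 went from 2.46 to 5.47 CPM (median 3.68) to 6.03 to 17 CPM (median 7.86), a log2 fold change of 1.36 (SE 0.24, adjusted p = 0.031). Leaving out 1 library at a time kept the A2m call in 5 of 12 fits and the Steap4 call in 4 of 12, with adjusted p-values up to 0.094 and 0.12. The A2m call was lost without lesioned library 1, 2 or 3 or control 1, 2, 4 or 5, and the Steap4 call without lesioned library 2, 3 or 5 or control 1, 2, 3, 4 or 6. The groups did not overlap for Vim, A2m, S1pr3 and Steap4, which is 4 of 10 members beside 0.154% of all genes. Vim (0.50, SE 0.10, adjusted p = 0.069), S1pr3 (0.45, SE 0.09, adjusted p = 0.078) and Timp1 (1.02, SE 0.19, adjusted p = 0.06) missed the threshold. The groups of Gfap overlapped. It had 1389 to 1673 CPM (median 1604) in controls and 1041 to 2060.5 CPM (median 1729) after the lesion, and the log2 fold change was 0.10 (SE 0.12, adjusted p = 0.9).

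The whole-culture input holds RNA of the entire slice, entorhinal cortex included, and shows the members at that level. Vim and Gfap rose, 2 of 10 members, where 2.45% of 17951 genes were called higher. Vim had 227, 227, 202, 238 and 234 CPM in control and 403, 309, 314, 260.0 and 374 CPM in lesioned input, with a log2 fold change of 0.55 (SE 0.10, adjusted p = 0.0087), and was the only member without overlap between the groups, beside 3.16% of all genes. Gfap had 11298, 14965, 14406, 17231 and 16716 CPM in control and 24119, 19562, 25175, 16755 and 21658 CPM in lesioned input. Its log2 fold change was 0.51 (SE 0.13, adjusted p = 0.036), and the call was kept in 4 of 10 fits without 1 library, with adjusted p-values up to 0.10. It was lost without lesioned input 1, 2, 3 or 5 or control input 2 or 3. Without lesioned input 4 or control input 5 the number of members called was 4, and the share of all genes called there is not given. Timp1 (0.68, SE 0.19, adjusted p = 0.051) and Cd44 (0.43, SE 0.13, adjusted p = 0.067) missed the threshold. Lcn2 and Steap4 were highest in lesioned input 1, which held 106 and 33.6 CPM, while the other 4 lesioned inputs held at most 31.3 and 14 CPM. S1pr3 was at 36.2, 65.7, 71.1, 91.8 and 136 CPM in control input and overlapped with the lesioned inputs at 137, 90.8, 160.2, 109 and 104 CPM. Aspg had a log2 fold change of -0.01 (SE 0.26, adjusted p = 0.99).

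Next, the regions were compared directly. In control cultures labelled Synpo-/- 5 of 10 members were lower in DG than in CA3, where 12.5% of 21408 genes were called lower. These were Gfap (log2 fold change -0.49, SE 0.08, adjusted p = 0.00014), S1pr3 (-0.41, SE 0.09, adjusted p = 0.0016), A2m (-0.43, SE 0.10, adjusted p = 0.0023), Serpina3n (-0.47, SE 0.11, adjusted p = 0.003) and Steap4 (-1.05, SE 0.28, adjusted p = 0.0082). In lesioned cultures labelled Synpo-/- 3 of 10 members were higher in DG, Vim (0.71, SE 0.11, adjusted p = 0.00035), Gfap (0.67, SE 0.17, adjusted p = 0.016) and S1pr3 (0.42, SE 0.11, adjusted p = 0.02), where 7.37% of 22767 genes were called higher. The Gfap and S1pr3 calls were lost without lesioned DG library 1 (adjusted p = 0.074 and 0.09). Only the 4 lesioned DG libraries were left out in turn there. In Synpo+/+ cultures no member was called in control or in lesioned tissue, where edgeR called 5.39% and 2.05% of genes. At an unadjusted p below 0.05 there were 4 members in control and 2 in lesioned tissue, beside 4521 of 25656 and 4698 of 24029 genes. DESeq2 called 1 member in each, where it called 6.91% and 6.3% of genes. Without control DG library 4, Serpina3n (-0.72, adjusted p = 0.041) and Steap4 (-1.81, adjusted p = 0.025) were lower in control DG than in control CA3. Without CA3 control 1, which left 1 CA3 control, the value of Serpina3n was -0.86. Without the lesioned DG library 5, which has a CA3-like Prox1 level, Vim (0.59, adjusted p = 0.00098) and Aspg (0.50, adjusted p = 0.039) were higher in lesioned DG than in lesioned CA3.

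The test of the difference itself asks whether the lesion changed the members more in DG than in CA3. In cultures labelled Synpo-/- 4 of 10 members had a larger lesion change in DG, where 0.877% of 25435 genes did. The difference of the log2 fold changes was 1.18 for Gfap (SE 0.19, adjusted p = 0.0026), 0.86 for S1pr3 (SE 0.14, adjusted p = 0.0032), 0.66 for Vim (SE 0.13, adjusted p = 0.013) and 0.68 for A2m (SE 0.17, adjusted p = 0.047). The A2m call was lost without lesioned DG library 1, 2 or 3 or without CA3 control 1, the library with the raised Prox1 level, with adjusted p-values up to 0.15. Only 5 such fits were run here, without each of the 4 lesioned DG libraries and without CA3 control 1. The other libraries were not left out. For Timp1 the difference was 0.01 (SE 0.31) and for Lcn2 it was -0.29 (SE 0.33). In Synpo+/+ cultures edgeR called no member and no gene of 27783, and DESeq2 called no member and 10 genes. The differences were 0.58 for Gfap (SE 0.25), 0.85 for Vim (SE 0.23, adjusted p = 0.92) and 0.42 for S1pr3 (SE 0.21). At an unadjusted p below 0.05 there were 2 members, beside 1240 of the 27783 genes. Without the DG library of low Prox1 level no member was called either, and the difference was 0.92 for Vim (adjusted p = 0.11) and 0.58 for Gfap (adjusted p = 0.6).

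**Figure D3:**
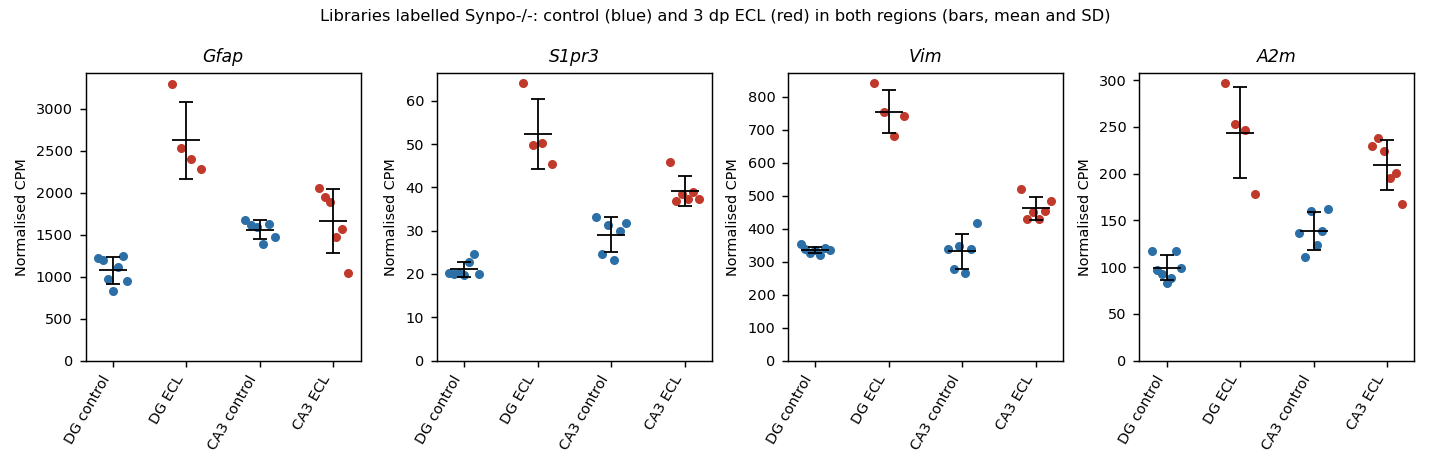
Normalised CPM of Gfap, S1pr3, Vim and A2m in the libraries labelled Synpo-/- (points, libraries; bars, mean and SD), with controls in blue and 3 dp ECL in red. The mean of control DG lies below that of control CA3 for Gfap, S1pr3 and A2m, and the order of the lesioned means is reversed for all 3, and the 4 lesioned DG libraries of Vim lie above all 6 lesioned CA3 libraries.

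No member was called between cultures labelled Synpo-/- and Synpo+/+ cultures in control DG, lesioned DG, control CA3 or lesioned CA3, where edgeR called 4, 4, 1 and 2 genes of all tested (0.0166%, 0.0166%, 0.00413% and 0.00891%). At an unadjusted p below 0.05 there were 3, 3, 4 and 1 members, beside 3746 of 24143, 859 of 24100, 3959 of 24203 and 1383 of 22447 genes. DESeq2 called 0, 0, 2 and 0 members, where in control CA3 it called 2.97% of genes. The largest of these differences was that of Lcn2, which had a log2 fold change of 0.95 (SE 0.28, adjusted p = 0.21) in control DG and 0.83 (SE 0.21, adjusted p = 0.12) in control CA3, higher in the cultures labelled Synpo-/-. The difference of the lesion changes between genotypes was tested as well. The edgeR interaction term called no member in DG (1 of 26245 genes, 0.00381%) and none in CA3 (0 of 26821 genes). At an unadjusted p below 0.05 there were 0 and 1 member, beside 2730 and 4589 of these genes. DESeq2 called no member in either, where it called 2 genes in DG and 388 in CA3. The largest interaction in size was that of Gfap in CA3, -0.73 (SE 0.26, adjusted p = 0.18), and in DG it was -0.17 (SE 0.19). Without the DG library of low Prox1 level, no member was called between genotypes in lesioned DG or in the interaction of DG. A p-value above the threshold does not show that the genotypes were alike. The control groups also differed in sex. All 4 DG and 2 CA3 controls of Synpo+/+ cultures had more Xist than Y-linked RNA. With the Synpo-/- label 4 of 7 DG controls and 4 of 6 CA3 controls did. The interactions of genotype or region with the lesion use these groups as well, and the part of sex in them was not tested.

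Markers of glial cells moved with the members in DG. Of all genes, 7.86% were called higher in Synpo+/+ DG and 5.17% in DG labelled Synpo-/-, and 1.5% and 0.053% in CA3. Of the 16 homeostatic astrocyte markers, 8 rose in Synpo+/+ DG (median log2 fold change 0.45) and 10 in DG labelled Synpo-/- (0.49), while in CA3 none was called in either genotype (0.07 and -0.11). Their summed level was 4280.0 to 5133 CPM in control and 5881 to 7362 CPM in lesioned Synpo+/+ DG, and 4687 to 5658 and 6111 to 6962 CPM in DG labelled Synpo-/-. Of the 13 microglia markers, 13 rose in Synpo+/+ DG (median 1.25) and 11 in DG labelled Synpo-/- (0.84), and their sum went from 529 to 738 CPM to 1429 to 1800.5 CPM and from 671 to 1529 CPM to 1478 to 1979.5 CPM. In CA3, 2 and 0 microglia markers rose (0.47 and -0.09), with sums of 569 to 987 CPM and then 1184 to 1598 CPM in Synpo+/+ and 859.9 to 1784 CPM and then 756 to 1327 CPM in cultures labelled Synpo-/-. No marker of these 2 lists was at 0 in all libraries of a group. Of the other cell types, 4 and 3 of 6 oligodendrocyte precursor markers, 2 and 2 of 6 border macrophage markers, 1 and 3 of 5 tested ependymal markers, 1 and 1 of 10 oligodendrocyte markers and 1 and 1 of 9 tested fibroblast and meningeal markers rose in Synpo+/+ DG and DG labelled Synpo-/-. The ependymal markers summed to 10.5 to 13.5 CPM in control and 14.6 to 33.4 CPM in lesioned Synpo+/+ DG, and to 10.1 to 15.1 and 21.1 to 38.8 CPM in DG labelled Synpo-/-. No endothelial or mural marker rose in DG, and the endothelial markers summed to at most 23.6 CPM there. Without the DG library of low Prox1 level, 9 astrocyte markers (median 0.38), 13 microglia, 4 precursor, 3 border macrophage, 2 ependymal, 2 oligodendrocyte, 1 fibroblast and 1 mural marker rose in Synpo+/+ DG, with the lowest and highest summed astrocyte and microglia levels as above.

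In CA3 and in input other markers moved. Of all genes, 439 of 17951 were called higher and 568 lower in input, and 11 and 5 of 20772 in CA3 labelled Synpo-/-. In CA3 labelled Synpo-/- no oligodendrocyte marker had a positive fold change, and 2 of 10 fell (median log2 fold change -0.71), with a sum of 1907 to 3109 CPM in control and 1249 to 1784 CPM in lesioned libraries. None of the 6 ependymal markers was called in CA3, and all had a negative value in both genotypes (median -1.49 in Synpo+/+ and -1.20 in cultures labelled Synpo-/-). Their sums were 58.6 and 172 CPM in the Synpo+/+ controls and 13.7 to 78.5 CPM in the lesioned libraries, and 9.33 to 129 CPM and then 12.0 to 21.9 CPM in CA3 labelled Synpo-/-. In input 6 of 13 microglia markers rose (median 0.57), with sums of 1074 to 1658 CPM in control and 1468 to 2454 CPM in lesioned input. Of 8 pan-neuronal markers 2 fell there (median -0.19), with sums of 7939 to 9915 CPM and then 7206 to 8398 CPM, and none of the 16 homeostatic astrocyte markers was called (median 0.14). The part of all these cell types in the member values was not tested.

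Set against the summed homeostatic astrocyte markers of the same library, 9 of 10 members were higher after the lesion in Synpo+/+ DG and 10 of 10 in the other 3 regional comparisons. The median change of the log2 ratio over the 10 members was 0.81 in Synpo+/+ DG and 0.85 in DG labelled Synpo-/-, and in CA3 it was 0.75 and 0.67. The log2 ratio of Gfap was higher by 1.03 in Synpo+/+ DG and by 0.95 in DG labelled Synpo-/-, without overlap between the groups, and differed by 0.22, with overlap, in CA3 labelled Synpo-/-. For Cd44 (0.16 and 0.22) and Aspg (-0.07 and 0.30) the groups overlapped in DG of both genotypes. Groups without overlap in the ratio numbered 6 members in each DG comparison, 8 and 5 in CA3 and 1, Vim, in the whole-culture input. The 8 rest on 2 controls and 3 lesioned libraries, where 32.1% of all genes rose without overlap in CPM. In CA3 labelled Synpo-/- the summed markers averaged 5929 CPM in control and 5324 CPM in lesioned libraries, with overlap. A lower sum raises every ratio. Without the DG library of low Prox1 level, 9 members were again higher in Synpo+/+ DG, with a median of 0.82 and 7 without overlap. No background share was computed for the ratios, which are given as a description.

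**Figure D4:**
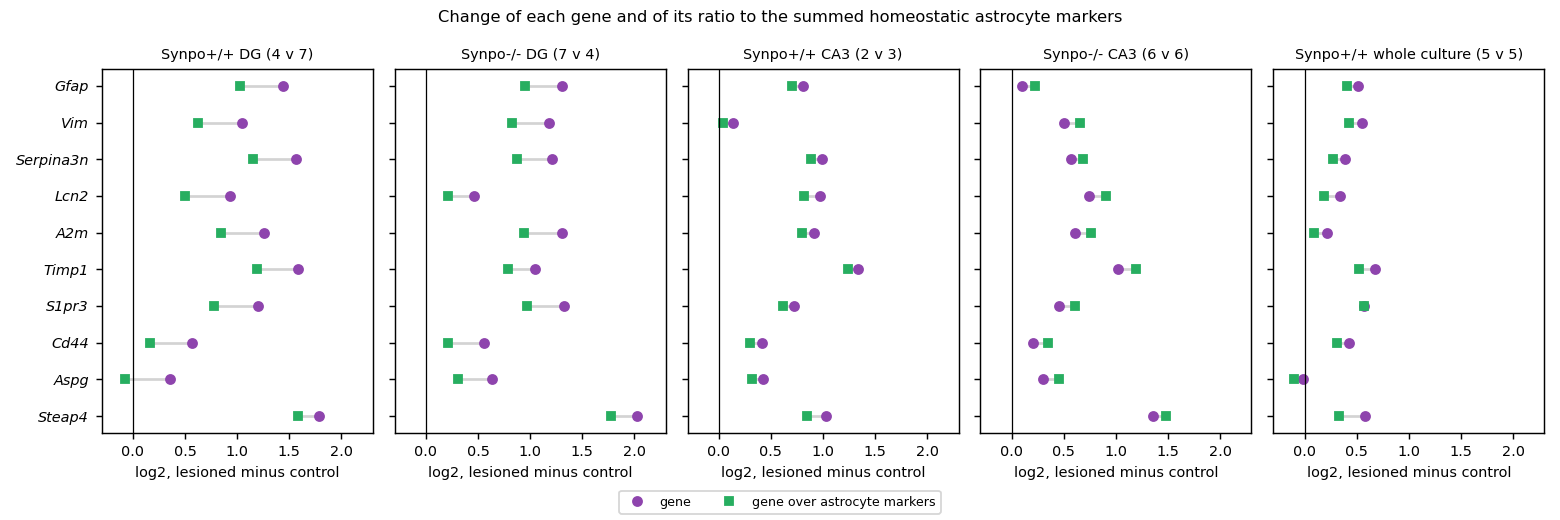
Change of each gene (purple, log2 fold change) and of its log2 ratio to the summed homeostatic astrocyte markers (green, lesioned minus control) in the 5 lesion comparisons. In DG the green squares lie left of the purple points, and in CA3 labelled Synpo-/- they lie to the right.

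Other genes known from reactive astrocytes were read from the same fits. Of a list of 39 such genes, 20 rose in Synpo+/+ DG and 19 in DG labelled Synpo-/- (median log2 fold change 0.68 and 0.62), beside 7.86% and 5.17% of all genes. The 15 shared genes are 75.0% and 78.9% of the respective calls. The share of all genes called in both was not computed. Serping1, the inhibitor of complement C1, went from 18.8 ± 4.67 (SD, n = 4) to 50.3 ± 11 CPM (n = 7) in Synpo+/+ DG, with a log2 fold change of 1.34 (SE 0.18, adjusted p = 0.00041). Galectin 1 (Lgals1, 1.09, SE 0.13, adjusted p = 0.00015), the calcium-binding S100a6 (1.00, SE 0.11, adjusted p = 6.4e-05), the small heat shock protein Cryab (1.04, SE 0.14, adjusted p = 0.00046) and the fatty acid carrier Fabp7 (0.84, SE 0.15, adjusted p = 0.0036) rose as well. Complement C3 rose in Synpo+/+ DG (0.97, SE 0.17, adjusted p = 0.0032). It was the only one of the 39 to rise in Synpo+/+ CA3 (0.70, SE 0.15, adjusted p = 0.047), where 1.5% of all genes were called higher. In CA3 labelled Synpo-/- the only one was Ptgs2, the inducible cyclooxygenase, which neurons also express (0.85, SE 0.13, adjusted p = 0.022). There 0.053% of all genes were called higher. In the whole-culture input 7 of 39 rose, beside 2.45% of all genes, among them Fabp7 (0.86, SE 0.09, adjusted p = 0.00039) and Lgals1 (0.82, SE 0.12, adjusted p = 0.0021).

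Of 36 ligands, receptors and signal genes of astrocyte reactivity, 31 passed the filter in Synpo+/+ DG, where 10 rose and none fell, and 32 in DG labelled Synpo-/-, where 9 rose and none fell. Of all genes 7.86% and 5.17% were called higher. The 3 complement C1q genes, which the list shares with the microglia markers, rose most, with log2 fold changes of 1.48 (C1qa), 1.29 (C1qb) and 1.45 (C1qc) in Synpo+/+ DG. The gp130 receptor chain Il6st rose in both genotypes (0.46, SE 0.12, adjusted p = 0.023, and 0.58, SE 0.11, adjusted p = 0.004), as did the TGF-beta receptor Tgfbr2 (0.83, SE 0.15, adjusted p = 0.0027, and 0.62, SE 0.14, adjusted p = 0.0085). Stat3 rose in Synpo+/+ DG (0.50, SE 0.13, adjusted p = 0.022) and Synpo+/+ CA3 (0.75, SE 0.15, adjusted p = 0.041) but did not pass the test in cultures labelled Synpo-/- (0.36, adjusted p = 0.11, in DG and 0.04, adjusted p = 0.95, in CA3) or in input (-0.13, adjusted p = 0.56). The SE of the Stat3 value was 0.13 in DG of both genotypes, and its Synpo+/+ CA3 call rests on 2 controls. A call in one genotype alone does not show a genotype difference, and the edgeR genotype interaction called no gene in CA3. The Stat3 feedback inhibitor Socs3 had a log2 fold change of 0.22 (SE 0.17, adjusted p = 0.39) in Synpo+/+ DG and -0.03 (SE 0.19, adjusted p = 0.95) in DG labelled Synpo-/-, and the receptor Osmr had 0.35 (SE 0.11, adjusted p = 0.058) and 0.28 (SE 0.11, adjusted p = 0.13). Of the gp130 ligands, Lif averaged 1.49 CPM in control and 1.33 CPM in lesioned Synpo+/+ DG, with a log2 fold change of -0.23 (SE 0.31, adjusted p = 0.62). Without the DG library of low Prox1 level, Osmr was called in Synpo+/+ DG (0.35, SE 0.10, adjusted p = 0.033), and 14 genes of this list rose, beside 22 of the 39 above and 8 of the 33 below. Il6 and Cntf stayed below the filter in all 5 lesion comparisons, with at most 15 and 9 counts in a library, and Osm did in 3 of them.

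Of 33 genes that act together with a member, 29 were tested in Synpo+/+ DG, where 7 rose and 1 fell, beside 1864 and 1022 of 23720 genes. Spp1, which encodes osteopontin, a ligand of Cd44, went from 81.5 ± 46.6 to 303 ± 58.6 CPM (log2 fold change 1.83, SE 0.26, adjusted p = 0.00068) and also rose in DG labelled Synpo-/- (1.83, SE 0.16, adjusted p = 6e-06) and in input (1.27, SE 0.20, adjusted p = 0.0035). Cd63, a tetraspanin to which Timp1 binds, rose in the same 3 comparisons (1.08, SE 0.12, adjusted p = 6.4e-05, 0.90, SE 0.11, adjusted p = 9.2e-05, and 0.50, SE 0.11, adjusted p = 0.017). S1pr1, the relative of S1pr3, rose in DG of both genotypes (0.63, SE 0.12, adjusted p = 0.006, and 0.52, SE 0.10, adjusted p = 0.0049), and so did Steap3, the relative of Steap4 (1.08, SE 0.28, adjusted p = 0.025, and 1.41, SE 0.22, adjusted p = 0.00074). Pzp, the relative of A2m, was the only one to fall, from 1.95 ± 0.590 to 1.00 ± 0.275 CPM in Synpo+/+ DG (-1.05, SE 0.31, adjusted p = 0.038). Serpina3c, a relative of Serpina3n, rose in input, from 0.550 ± 0.217 to 1.76 ± 0.826 CPM (1.65, SE 0.41, adjusted p = 0.03). None of the tested genes of this list was called in CA3 of either genotype.

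**Figure D5:**
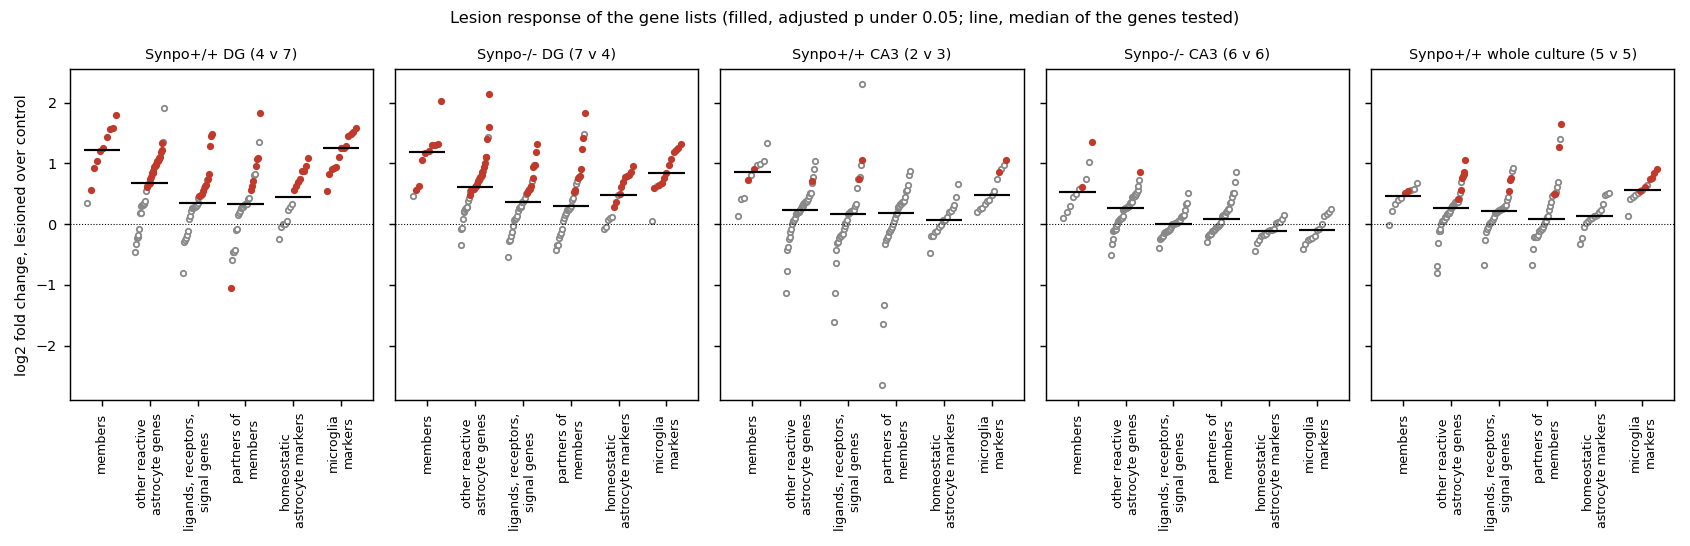
Log2 fold change (lesioned over control) of each tested gene of the members and of 5 other lists in the 5 lesion comparisons, sorted within a list, with filled points for an adjusted p below 0.05 and the median as a line. The medians of the members are 1.23 and 1.19 in DG and 0.86 and 0.54 in CA3, against 0.45, 0.49, 0.07 and -0.11 for the homeostatic astrocyte markers.

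Over the 39 regional libraries the members moved together to different degrees. The points share region, lesion and genotype, so the correlations are a description. Spearman's rho of log2 CPM over the 45 pairs of members ranged from -0.04 (Aspg and Lcn2) to 0.93 (S1pr3 and A2m), with a median of 0.68. Gfap, Serpina3n, A2m and S1pr3 had a rho of 0.87 to 0.93 with each other, whereas the highest rho of Lcn2 with another member was 0.72 (Steap4) and that of Aspg was 0.69 (Cd44). Among 14246 genes, the ones most like Gfap were Hspb8 (0.95), Fcrls (0.94) and Tspo (0.94). The gene most like A2m (0.90) and most like S1pr3 (0.94) was Serpinb6a, the gene most like Serpina3n was Serping1 (0.90), and the gene most like Lcn2 was C3 (0.85). Cd44 was most like Msr1 (0.84), Vim most like P4ha3 (0.87), Timp1 most like Trib1 (0.80), Aspg most like Gm37310 (0.83) and Steap4 most like Eif4g2 (0.82). Over the 38 libraries without the DG library of low Prox1 level the pairs ranged from -0.02 to 0.93 (median 0.69), and the most alike gene was the same for 9 members, whereas for Timp1 it was Dusp6 (0.79).

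In the SP-coIP, which recovers RNA with an antibody against synaptopodin, 31.4% to 58.3% of all genes were called against input. In control Synpo+/+ cultures 5 of 10 members were higher than in input, where 29.6% of 18222 genes were called higher. After the lesion 2 were higher and 1 was lower (30.5% and 27.8% of 18229 genes). These fits did not use the pairing of SP-coIP and input, nor did those below unless the block is named. Pairing by lysate called 7 and 5 members, beside 11393 of 18222 and 11376 of 18229 genes. With the lysate as a block, since coIP and input of a number come from the same lysate, Lcn2 (-0.28, adjusted p = 0.012, and -0.42, adjusted p = 0.0042) and Timp1 (-0.35, adjusted p = 0.015, and -0.60, adjusted p = 0.0053) were also lower in control and lesioned cultures, where the block called 29.5% and 30.6% of genes lower. With the length trend removed the values were positive, 0.07 and 0.02 for Lcn2 and 0.41 and 0.29 for Timp1, which was then called higher in control SP-coIP (adjusted p = 0.042). In the libraries labelled Synpo-/-, with 2 of each, 3 members were higher and 1 was lower (15% and 16.4% of 20892 genes). A2m was higher in all 3 comparisons (0.88, SE 0.14, adjusted p = 0.00013, then 0.74, SE 0.17, adjusted p = 0.0024, and 0.69, SE 0.19, adjusted p = 0.016), and so was Aspg (0.95, SE 0.26, adjusted p = 0.007, then 0.67, SE 0.23, adjusted p = 0.023, and 0.81, SE 0.25, adjusted p = 0.029). Gfap (0.54, SE 0.17, adjusted p = 0.014), Vim (0.28, SE 0.10, adjusted p = 0.025) and Steap4 (0.64, SE 0.19, adjusted p = 0.012) were the other 3 higher in control SP-coIP. S1pr3 was the member that was lower, after the lesion (-0.44, SE 0.14, adjusted p = 0.013) and in the libraries labelled Synpo-/- (-0.72, SE 0.20, adjusted p = 0.016), where Vim was also higher (1.04, SE 0.18, adjusted p = 0.0013). Leaving out 1 library changed these counts by over 1.5 times for control SP-coIP 4 (3 members called), lesioned SP-coIP 1 (5) and, of the libraries labelled Synpo-/-, SP-coIP 1 and input 2 (2 each). These last are numbered by the sample name, and for both inputs the labels also give a biological replicate number that is the reverse of it. In the libraries labelled Synpo-/- the calls of A2m and Aspg were lost without SP-coIP 1 or input 2, with adjusted p-values up to 0.15 and 0.18, and that of S1pr3 without input 1 (0.24). The lesioned Aspg call was lost without SP-coIP 5 or input 2, 4 or 5 (up to 0.076). In control cultures the Gfap call was lost without SP-coIP 4 (0.051) and the Vim call without SP-coIP 4 or 5 or input 3 or 5 (up to 0.078).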

How the data were processed

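RNA-seq counts were analysed from 63 libraries. Per the submitters' processing notes and the study's methods, the authors trimmed reads with cutadapt 3.5, aligned them with STAR 2.7.8a to mm10 and counted them in exons of the GENCODE M25 annotation (GRCm38) with featureCounts 2.0.1, without strand. The deposited values are whole-number counts per gene symbol. Samples were grouped by their labels.

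Each pair of groups, or the 4 groups of an interaction, was fitted alone with edgeR 4.0.16 (quasi-likelihood test, TMM, filterByExpr) in R 4.3.3, and genes were called at a Benjamini-Hochberg adjusted p below 0.05 over all genes tested. The limit on the mean normalized count (300.0) was tried only as an alternative, like DESeq2 1.42.0, the RLE scaling, testing every gene with a count, removal of a length trend, a replicate block, all 8 regional groups in one fit and leaving out single libraries. CPM are TMM-normalised, separately for the regional and the whole-culture libraries, and TPM were computed from merged exon lengths. The scripts were tested on simulated data. Depth sets the precision of low genes such as Steap4.

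The members and gene lists were chosen with earlier results of these data known. Named were all members, from each list up to 4 genes per direction with the smallest p among those called in a lesion comparison, Il6, Lif, Cntf, Osm, Stat3, Socs3 and Osmr whatever they showed, and the 3 genes most like each member. Of these 3 some are given. The fits without the library of low Prox1 and without CA3 control 1 labelled Synpo-/- were chosen after seeing the data in the region and genotype comparisons, and so were the lists, ratios and correlations without the former. SP-coIP and input of a number share a lysate, and their deviations from the group means correlated in all 5 pairs (r 0.30 to 0.64 in control, 0.16 to 0.62 in lesioned cultures), so they are paired. The main fits did not use this pairing, and the replicate block did.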

Additional observations from a re-analysis of the deposited data

Results flagged for a closer look

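Of 100 pairs of a member and a group of 4 to 10 libraries, 8 held a library far from the others of its group, and chance flags about 1 in 20. Gfap had 3056 CPM in lesioned Synpo+/+ DG library 4, with the next at 2347 CPM. Lesioned whole-culture input 1 and its SP-coIP partner stood apart for the same genes. Lcn2 had 106 CPM in this input (next 31.3) and 93.2 CPM in this SP-coIP (next 23.6), and Steap4 had 33.6 CPM (next 14) and 36.7 CPM (next 13.6). Input and SP-coIP of a number come from the same lysate, so these are not independent observations. S1pr3 had 45.9 CPM in lesioned CA3 library 1 labelled Synpo-/- (next 39). Aspg had 7.05 CPM in control input 5 (next 3.93) and 9.73 CPM in lesioned SP-coIP 5 (next 6.48).

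The lesion change differed between DG and CA3 in cultures labelled Synpo-/- for Gfap (difference of log2 fold changes 1.18), S1pr3 (0.86), A2m (0.68) and Vim (0.66), by the interaction term of edgeR with adjusted p-values of 0.0026, 0.0032, 0.047 and 0.013. Their causes were not tested.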

How the results depend on the processing

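Of 290 fold changes of members in the 5 lesion comparisons under other settings, 250 kept their direction and their side of the threshold. The members called in DG stayed within 1.5 times under all settings run. In Synpo+/+ CA3 the count of 2 became 5 with DESeq2, 7 with no filter, 6 with the replicate block, and 1 with the length trend removed or with all 8 groups in one fit. Of 22340 genes tested (47901 with no filter, 30550 with all 8 groups), the main edgeR fit called 397. In the same order these settings called 1343, 2716, 875, 96 and 7 genes. In CA3 labelled Synpo-/- the 2 became 7, 6, 5 (block) and 4 (length trend), and 1 above the count limit. Of 20772 genes tested (51138 with no filter), the main edgeR fit called 16. The settings other than the count limit called 81, 86, 34 and 25. In input the 2 became 5 with DESeq2 and 4 with no filter. Of 17951 genes tested there (34705 with no filter), the main edgeR fit called 1007 and these settings 1687 and 1148. Between regions, DESeq2 called 1 in Synpo+/+ control and 1 in lesioned tissue, no filter 2 in control, the block 1 and 3, all 8 groups 1 in lesioned tissue, and the block 5 in lesioned tissue labelled Synpo-/-. Over all genes in Synpo+/+ control the main edgeR fit called 1382, DESeq2 1772, no filter 1811 and the block 692. In lesioned Synpo+/+ tissue they called 492 (main), 1513 (DESeq2), 4999 (block) and 2036 (all 8 groups). In lesioned tissue labelled Synpo-/- the main fit called 3098 and the block 4292. Between genotypes, no filter called 1 in control DG, and DESeq2, no filter and the block called 2 in control CA3. Over all genes no filter called 58 in control DG, where the main edgeR fit called 4. In control CA3 the settings called 719, 1022 and 2232 genes, where the main fit called 1. In the SP-coIP, the count limit left 3 in control and the block called 5 after the lesion. After the lesion the block called 11376 of 18229 genes and the main edgeR fit 10620. Outside the SP-coIP the lowest r of same-numbered libraries was below 0.1 in each comparison. Between regions in controls labelled Synpo-/- the r of the 6 pairs was 0.07 to 0.43, all positive. Whether libraries of a number share a culture is not given in the labels and was not tested. The replicate block may therefore pair libraries there or only share a number. The causes were not tested.

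Without 1 library at a time, members called ranged from 8 to 9 (Synpo+/+ DG), 9 to 9 (DG labelled Synpo-/-), 0 to 4 (Synpo+/+ CA3), 0 to 3 (CA3 labelled Synpo-/-), 1 to 4 (input), 0 to 2 in both Synpo+/+ region comparisons, 3 to 6 and 2 to 5 in Synpo+/+ SP-coIP and 2 to 5 in that labelled Synpo-/-. Where this left 1 library, it was assumed to vary like the rest. The shares of all genes called in these fits are not given. In the region, genotype and interaction comparisons only libraries of groups of at most 5 were left out, apart from those of unusual Prox1 level. Calls in these comparisons were therefore not checked against every library. Without DG library 5, 2 members were called between regions in lesioned Synpo+/+ tissue.

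No result whose direction turned had been called by the edgeR test without a block, but Lcn2 and Timp1 in SP-coIP, called lower with the lysate block, turned with the length trend removed. With the length trend removed, which moved the median of all genes by -0.14 in Synpo+/+ DG and -0.13 in Synpo+/+ CA3 and the share of higher calls from 64.6% to 36.4% and from 84.6% to 59.4%, these log2 values turned sign: Vim in Synpo+/+ CA3 (-0.0171), Timp1 (0.0076) and Serpina3n (0.047) between regions in control and lesioned Synpo+/+, Cd44 between genotypes in lesioned CA3 (0.033), the genotype interactions of Cd44 in DG (0.10) and of Lcn2 (0.054) and Aspg (0.098) in CA3, and in SP-coIP Lcn2 (0.073 control, 0.019 lesioned), Timp1 (0.41, adjusted p = 0.042, and 0.29) and Serpina3n (0.40, adjusted p = 0.031). With the replicate block these were Aspg in input (0.012), Cd44 (-0.0987) and Timp1 (-0.20) between regions in Synpo+/+, Timp1 in control labelled Synpo-/- (-0.037), Serpina3n (0.0046) and Aspg (-0.053) between genotypes in lesioned DG, Steap4 in control CA3 (-0.087), Gfap (0.049) and Serpina3n (0.10) in lesioned CA3, the interactions of Vim (-0.0309) and A2m (-0.049) in DG, and Steap4 in lesioned SP-coIP (-0.0105). With all 8 groups they were Cd44 (-0.0018), A2m (-0.00206), Vim (-0.031), Timp1 (-0.012), Aspg (-0.0014) and S1pr3 (-0.022). With DESeq2 and RLE they were Cd44 between regions (-0.011 and -0.011) and Timp1 in the region interaction (-0.00133 and -0.000933).

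Without 1 library at a time, the log2 values of these members spanned 0, and none of them had been called. In input, Lcn2 ranged from -0.28 to 0.70 and Aspg from -0.19 to 0.26. Between regions in control Synpo+/+, Timp1 ranged from -0.54 to 0.49 and Cd44 from -0.0685 to 0.0972. Between regions in lesioned Synpo+/+, Serpina3n ranged from -0.19 to 0.16 and Timp1 from -0.0824 to 0.53. Between genotypes in lesioned DG, Serpina3n ranged from -0.10 to 0.0409 and Aspg from -0.0322 to 0.0863. Between genotypes in control CA3, Serpina3n ranged from -0.0217 to 0.61. Between genotypes in lesioned CA3, Serpina3n ranged from -0.31 to 0.0137, S1pr3 from -0.00561 to 0.0839, Cd44 from -0.0463 to 0.0704 and Aspg from -0.0354 to 0.23. In the genotype interaction of DG, A2m ranged from -0.11 to 0.14, S1pr3 from -0.0429 to 0.15, Cd44 from -0.0928 to 0.063 and Steap4 from -0.29 to 0.46. In that of CA3, Lcn2 ranged from -0.43 to 0.0295, Timp1 from -0.96 to 0.0851 and Aspg from -0.39 to 0.0526. In the region interaction of Synpo+/+, Lcn2 ranged from -0.26 to 0.21, Timp1 from -0.43 to 0.65 and Aspg from -0.33 to 0.0697. In that labelled Synpo-/-, Timp1 ranged from -0.0424 to 0.0548. In control SP-coIP, Lcn2 ranged from -0.67 to 0.12 and S1pr3 from -0.15 to 0.34. In lesioned SP-coIP, Lcn2 ranged from -1.11 to 0.29, Cd44 from -0.24 to 0.0196 and Steap4 from -0.51 to 0.53. In SP-coIP labelled Synpo-/-, Gfap ranged from -0.34 to 0.13, Serpina3n from -0.16 to 0.35, Lcn2 from -0.34 to 0.51 and Steap4 from -0.0432 to 0.51.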
